A study of Mus musculus with 4 samples.

Results

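The BCL-2 family genes described here are 10 mouse genes that set the threshold of mitochondrial cell death. They were chosen by symbol, all 10 of 10 were present, and the deposited table holds 11111 genes. The set comprises the pro-survival genes Bcl2, Bcl2l1, Mcl1 and Bcl2a1b, the effectors Bax and Bak1, and the BH3-only genes Bcl2l11, Bid, Bbc3 and Pmaip1. RNA sequencing read their transcripts in macrophages that had been grown for 7 days from the bone marrow of wild-type C57BL/6 mice. All cells carried Endoporter, a peptide that delivers oligomers into cells, for 24 hours and all were then stimulated with lipopolysaccharide (LPS) at 10 ng/ml for 4 hours. In the 2 Ctrl MO libraries, the controls, the cells had received a control morpholino at 2 µM, and in the 2 Reg1-MOs libraries morpholinos directed at Regnase-1, also at 2 µM. A morpholino is a synthetic antisense oligomer that binds RNA and blocks access to it. No unstimulated cells were analysed here, so every difference below is one within LPS-stimulated cells. Nothing in the labels states that the replicates were separate animals or cultures, so the p-values cover only the spread among these libraries, and that spread may be technical. MO1 and MO2, the headings of the Reg1-MOs columns, also name the targeting morpholinos, and it is unsettled whether each library received one or both.

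Mitochondrial cell death begins when Bax and Bak assemble in the outer mitochondrial membrane and let cytochrome c out. Pro-survival proteins such as BCL-2, BCL-XL (from Bcl2l1), MCL-1 and A1 (from the Bcl2a1 genes) hold Bax, Bak and the activating BH3-only proteins in check, and BH3-only proteins bind the groove of the pro-survival ones. In macrophages A1 is a target of NF-kappaB and is induced by LPS, MCL-1 is a short-lived protein, and BIM (from Bcl2l11) is induced through Toll-like receptors. Regnase-1, encoded by Zc3h12a, is an RNase that degrades inflammatory mRNAs. In human breast tumour cells it has been reported to destabilise the BCL2L1, BCL2A1 and BIRC3 transcripts.

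The libraries held 23369753 to 25213695 reads in the table, and the median gene had 404 to 437. The transcript of the targeted gene, Zc3h12a, rose 2.14-fold with Reg1-MOs (limma adjusted p = 4.008e-04), from 3407 and 3572 reads to 7799 and 6753; the labels do not say whether the morpholinos were meant to raise or lower Regnase-1. Macrophage markers were abundant in every library, with Adgre1 at 60237 to 72833 reads, and they did not move one way. Of 9 detected, Cd68 rose (0.34, limma adjusted p = 0.0220), Itgam (-0.67, adjusted p = 0.00302) and Lyz2 (-0.27, adjusted p = 0.0366) fell, and 6 did not pass. The calls of Cd68 and Lyz2 ended in fits with 1 library left out (adjusted p up to 0.210 and 0.355). Of 11 detected stromal and fibroblast markers, 11 fell, with a median log2 fold change of -1.51, and their summed level was 185 and 189 RPM (reads scaled to a common library total) in the controls and 74.5 and 82.1 with Reg1-MOs. The stromal markers Lum, Pdgfra and Thy1 were not among the rows analysed. Summed neutrophil markers spanned 320.0 to 359 RPM in the controls and 257 to 345 with Reg1-MOs, with 0 of 10 passing limma. Of 11 lymphocyte markers, Il7r and Cd79b were detected; Il7r rose (0.76, limma adjusted p = 0.00261) and Cd79b, with 19 to 45 reads, stood at -0.82 (adjusted p = 0.0695). The dendritic cell list had 4 detected genes, of which Itgax fell (-1.55, limma adjusted p = 9.29e-05). The others did not pass: Cd74 at -0.13 (limma adjusted p = 0.269), H2-Aa at -0.11 (0.341) and H2-Ab1 at -0.01 (0.969). Kit, the single mast cell marker detected, fell (-0.67, adjusted p = 0.0462) from 70 and 71 reads to 44 and 42, a call that ended without any 1 library (adjusted p up to 0.217). The part of these markers in the values below was not tested, and in bulk libraries fewer cells of a type and less RNA per cell cannot be told apart.

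Values of the family differed little between the groups and lay on both sides of the controls. With Reg1-MOs the p53-upregulated BH3-only gene Bbc3, which encodes PUMA, fell 1.33-fold, and it was the single member to pass limma at an adjusted p of 0.05. No member rose by that test, although 3 of 10 had a higher value at an unadjusted p below 0.05 (Bcl2, Bcl2l1 and Bid), and limma with voom weights on the recovered reads also gave 0 rises and 1 fall. The share called was 12.2% among all genes, with 6.22% higher and 6.03% lower, so 1 of 10 members is near that background. At an unadjusted p below 0.05, 6 of 10 members stood against 29.4% of all genes (3 higher against 13.6%, 3 lower against 15.7%). With the replicate number as a block, which the labels do not describe as a pairing, 5 of 10 members passed against 30.8% of all genes. The median log2 fold change over the 10 members was 0.04, with a median size of 0.19. Over all 11111 genes these were -0.03 and 0.17. In 4 members both Reg1-MOs libraries lay above both controls, in 4 both lay below, and in 2 the groups overlapped. Across all genes 58.9% did not overlap, 27.1% with Reg1-MOs above and 31.8% below.

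**Figure D1:**
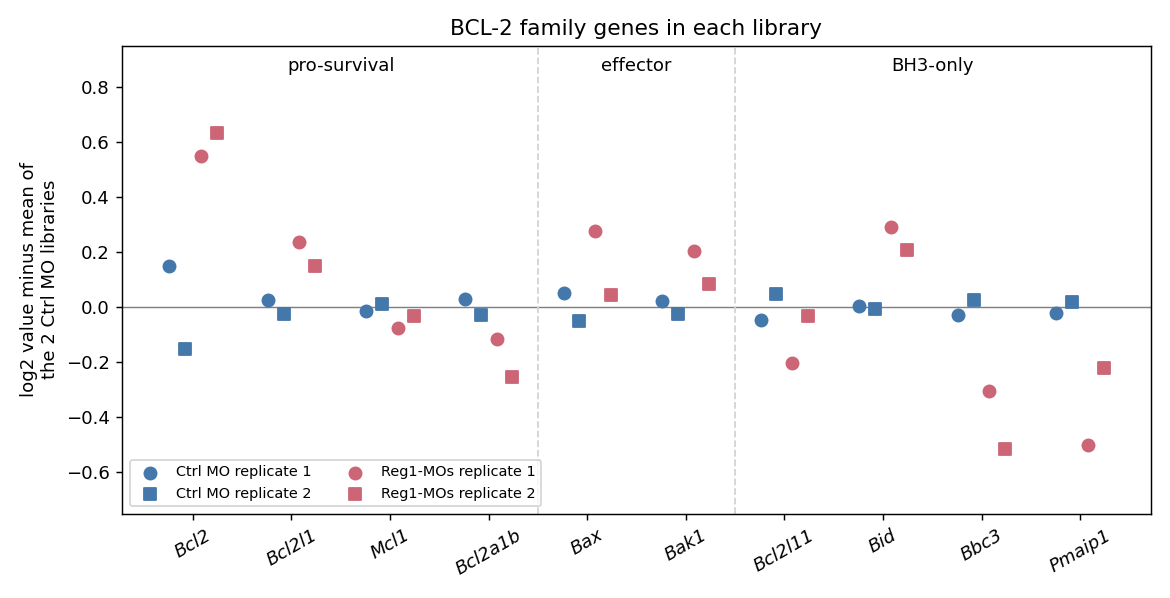
Deposited log2 value of each BCL-2 family gene in each library, after subtracting the mean of the 2 Ctrl MO libraries of that gene; circles are replicate 1, squares replicate 2, blue Ctrl MO and red Reg1-MOs. Bcl2, Bcl2l1, Bak1 and Bid have both red points above both blue ones, Mcl1, Bcl2a1b, Bbc3 and Pmaip1 have both below, and Bax and Bcl2l11 overlap.

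Among the pro-survival genes, Mcl1 had almost the same level in all libraries. Mcl1 (ENSMUSG00000038612; chromosome 3, 95658788 to 95663176 on GRCm38, plus strand), whose protein binds BIM, Bak and NOXA, had deposited log2 values of 10.02 and 10.05 in the controls and 9.96 and 10.00 with Reg1-MOs. The Reg1-MOs values lay 0.02 below the lower control at their closest. The fitted log2 fold change was -0.05 (SE 0.06, limma adjusted p = 0.595) with a 95% interval of -0.20 to 0.09, and it was 0.01 after quantile normalization.

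Bcl2l1 (ENSMUSG00000007659; chromosome 2, 152780668 to 152831728, minus strand) encodes BCL-XL, the long isoform that guards Bax and Bak, and the short pro-apoptotic isoform, which gene-level reads do not separate. Its log2 values were 7.11 and 7.06 in the controls and 7.32 and 7.24 with Reg1-MOs. Both Reg1-MOs libraries lay above both controls, by 0.12 at the closest. At a log2 fold change of 0.19 (SE 0.07, 95% interval 0.03 to 0.36) it did not pass (limma adjusted p = 0.115). Leaving out any 1 library gave 0.15 to 0.24, and 0 of 4 such fits passed.

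Bcl2 itself (ENSMUSG00000057329; chromosome 1, 106538178 to 106714274, minus strand), the founding member, was hardly detected. Its reads numbered 26 and 21 in the controls and 35 and 34 in the Reg1-MOs libraries. The groups did not overlap, and counts this small carry a wide counting error. Its log2 fold change was 0.59 (SE 0.24, 95% interval 0.03 to 1.15, limma adjusted p = 0.151), and 0.44 to 0.74 with 1 library left out. Of its 9157 annotated exon bases, 558 are shared with an antisense transcript, D630008O14Rik. Reads of that overlap cannot be told apart if the authors' counting ignored strand, and its strand setting is not given.

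Bcl2a1b (ENSMUSG00000089929; chromosome 9, 89199209 to 89207827, plus strand) is one of 4 mouse copies of the gene for A1, a pro-survival protein of haematopoietic cells. The other copies are Bcl2a1a (88956900 to 88962419, plus strand), Bcl2a1d (88723285 to 88731914, minus strand) and Bcl2a1c (114330135 to 114330578, plus strand) on the same chromosome. Bcl2a1c has a shorter annotated coding sequence, of 387 bases, and is left out of the comparison that follows. The coding sequences of Bcl2a1a, Bcl2a1b and Bcl2a1d, each 519 bases in the GENCODE M21 transcripts of GRCm38, differ at 12 positions among the 3. The first 75 coding bases, the stretch of that length with the most differences, show how little a read has to tell these genes apart. Capitals mark the 6 positions that differ.
Bcl2a1a: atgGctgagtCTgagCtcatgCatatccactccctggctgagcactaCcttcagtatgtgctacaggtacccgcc
Bcl2a1b: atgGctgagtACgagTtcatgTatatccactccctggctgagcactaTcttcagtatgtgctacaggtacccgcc
Bcl2a1d: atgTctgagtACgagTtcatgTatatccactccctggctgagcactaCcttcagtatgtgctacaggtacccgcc
Counted from the A of the start codon, Bcl2a1d carries G4T and T48C relative to Bcl2a1b in this stretch. The sequencing used 75 cycles. Of the 75-base words in the annotated Bcl2a1b transcript, 43.5% also occur in another Bcl2a1 gene, against 67.6% for Bcl2a1d, 55.2% for Bcl2a1a and 3.78% for Bcl2a1c. Including Gm29094, an overlapping gene model on the same strand that shares 401 exon bases, 68.4% of the Bcl2a1b words are shared. How the authors' counting treated such reads is not given, so the level of each copy is uncertain.

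In all 4 copies both Reg1-MOs libraries lay below both controls, a pattern that 31.8% of all genes had. The copies share much of their sequence, so they are not 4 separate observations. Bcl2a1b had log2 values of 10.11 and 10.05 in the controls and 9.97 and 9.83 with Reg1-MOs. The groups lay 0.09 apart. Its log2 fold change of -0.18 (SE 0.07, 95% interval -0.35 to -0.02) did not pass (limma adjusted p = 0.135), and it stood at -0.25 to -0.11 with 1 library left out. Bcl2a1a, with 1576 and 1547 reads against 1314 and 1137, passed at -0.31 (SE 0.07, limma adjusted p = 0.0348), a call that ended without any 1 of the 4 libraries (adjusted p up to 0.251). Bcl2a1d stood at -0.14 (adjusted p = 0.210) and Bcl2a1c, with 71 to 98 reads, at -0.26 (adjusted p = 0.311). Summed over the copies, there were 27654 and 26707 reads in the controls and 25422 and 21324 with Reg1-MOs. These sums do not depend on how reads were divided among the copies. They do depend on whether shared reads were dropped or counted more than once, which is not given. On the deposited scale these sums were 10.50 and 10.45 against 10.36 and 10.23, so the summed values did not overlap either. Bcl2a1b took 75.7% to 76.3% of the reads in every library.

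**Figure D2:**
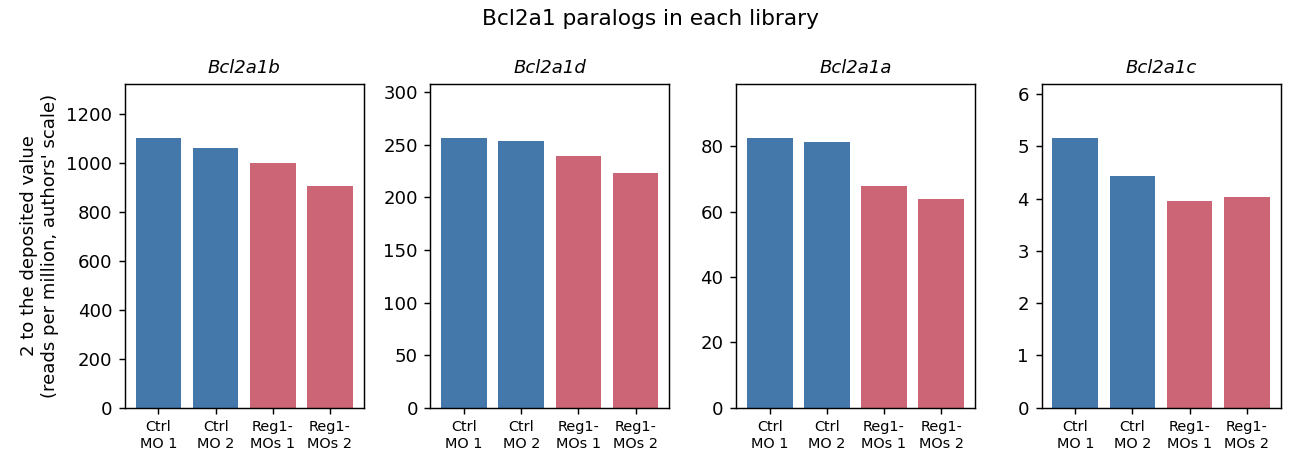
Level of each Bcl2a1 copy in each library, as 2 to the power of the deposited log2 value, with bars from 0, blue for Ctrl MO and red for Reg1-MOs; the vertical scales differ between panels. Both red bars are below both blue bars in each of the 4 copies, and Bcl2a1b is the most abundant copy.

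The Bcl2a1 copies also share sequence near their transcription start sites, which is shown as a description of the locus. The lower Reg1-MOs values of the copies are a pattern that 31.8% of all genes had. Any part of this sequence in them was not tested. The shared stretch begins at -150 from the start site in Bcl2a1b, -106 in Bcl2a1a and Bcl2a1d, and -216 in Bcl2a1c. In Bcl2a1c it lies wholly before the annotated start site. The stretches below come from the RefSeq promoter windows on GRCm38.p6 (250 bases before to 50 after the start site), 5′ to 3′ on the gene's strand, and capitals mark the 8 positions of 156 that differ among the 4.
Bcl2a1b, chr9:89199123-89199278, plus strand: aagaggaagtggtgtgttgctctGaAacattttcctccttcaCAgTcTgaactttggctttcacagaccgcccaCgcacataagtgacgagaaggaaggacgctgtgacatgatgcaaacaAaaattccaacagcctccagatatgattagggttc
Bcl2a1a, chr9:88956814-88956969, plus strand: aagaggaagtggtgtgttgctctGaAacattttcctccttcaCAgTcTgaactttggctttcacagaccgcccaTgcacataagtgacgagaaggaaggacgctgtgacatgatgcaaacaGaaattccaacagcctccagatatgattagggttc
Bcl2a1d, chr9:88731801-88731956, minus strand: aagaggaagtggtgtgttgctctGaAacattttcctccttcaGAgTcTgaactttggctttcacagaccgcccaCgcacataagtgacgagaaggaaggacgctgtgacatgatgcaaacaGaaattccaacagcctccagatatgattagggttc
Bcl2a1c, chr9:114329919-114330074, plus strand: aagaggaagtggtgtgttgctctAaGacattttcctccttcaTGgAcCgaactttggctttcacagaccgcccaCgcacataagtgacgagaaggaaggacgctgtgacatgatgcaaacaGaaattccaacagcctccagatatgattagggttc
Relative to Bcl2a1b there are 2 differences in Bcl2a1a, 2 in Bcl2a1d and 7 in Bcl2a1c.

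Next to this stretch lies a match to TGANTCA, the letters used to search for AP-1 with any base at N, in the 3 copies with more reads. The base at N is A in each, so the match depends on A being allowed there, and a stricter form of the motif was not searched. The matches are in capitals here with their counterpart in Bcl2a1c.
Bcl2a1b, chr9:89199100-89199125: cttttaaacTGAATCAgaagaggaag
Bcl2a1a, chr9:88956791-88956816: cttttaaacTGAATCAgaagaggaag
Bcl2a1d, chr9:88731948-88731973: cttttaaacTGAATCAgaagaggaag
Bcl2a1c, chr9:114329896-114329921: cttttaaacTGAATGAgaagaggaag
Counted from the first printed base, Bcl2a1c has C15G and no match. On either strand, 7.81% of 32851 RefSeq promoter windows of this length hold TGANTCA with any base at N, and this pattern is its own reverse complement. No kappaB motif was found in the windows of the 4 copies, which says only that these letters are absent from 300-base windows. A match is a description of the letters and not of a bound site.

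The effector genes had somewhat higher values with Reg1-MOs, and neither passed. Bak1 (ENSMUSG00000057789; chromosome 17, 27019810 to 27029009, minus strand), which encodes the effector resident in the outer mitochondrial membrane, had log2 values of 7.25 and 7.20 in the controls and 7.43 and 7.31 with Reg1-MOs. The groups lay 0.06 apart, and the log2 fold change was 0.14 (SE 0.07, 95% interval -0.03 to 0.31, limma adjusted p = 0.235). Bax (ENSMUSG00000003873; chromosome 7, 45461697 to 45466898, minus strand), whose protein moves from the cytosol to mitochondria, had 6.80 and 6.70 against 7.02 and 6.79. Its groups overlapped, since Reg1-MOs replicate 2 lay below Ctrl MO replicate 1. Bax stood at a log2 fold change of 0.16 (SE 0.09, 95% interval -0.06 to 0.38, adjusted p = 0.294), and it ranged from 0.05 without Reg1-MOs replicate 1 to 0.28 without Reg1-MOs replicate 2. A p that misses the threshold does not show that either level was equal. Annotated exons of Bak1 and of Bax overlap those of other gene models, with 12.8% and 6.84% of their 75-base words shared.

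The BH3-only genes lay on both sides of 0, from 0.25 for Bid to -0.41 for Bbc3. Bbc3 (ENSMUSG00000002083; chromosome 7, 16308393 to 16318205, plus strand), a p53 and FOXO target whose protein PUMA binds all pro-survival relatives, had 642 and 667 reads in the controls and 539 and 427 in the Reg1-MOs libraries. Its log2 values were 5.07 and 5.13 against 4.80 and 4.59, so both Reg1-MOs libraries lay below both controls by at least 0.27. Its fall on the log2 scale was -0.41 (SE 0.10, 95% interval -0.64 to -0.17, limma adjusted p = 0.0400). By p it ranked 1151 of the 11111 genes. Removing any 1 library ended the call. The adjusted p was then 0.0993 or 0.200 with Ctrl MO replicate 1 or 2 removed and 0.0540 or 0.0788 with Reg1-MOs replicate 1 or 2 removed, and the log2 fold change lay between -0.51 and -0.30. A fit with no variance trend ended it too (limma adjusted p = 0.121). In the same libraries stromal markers fell (11 of 11, from 185 and 189 to 74.5 and 82.1 RPM). Of single genes in other lists, Itgax and Kit fell and Il7r rose, while Cd79b and the other detected dendritic cell genes did not pass. The part of these markers in the Bbc3 value was not tested.

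Bbc3 is shown with one of its 3 RefSeq promoter windows because it is the single member that passed. This window, chr7:16310011-16310310 on GRCm38.p6, plus strand, holds the FOXO motif TGTTTAC, in capitals.
Bbc3: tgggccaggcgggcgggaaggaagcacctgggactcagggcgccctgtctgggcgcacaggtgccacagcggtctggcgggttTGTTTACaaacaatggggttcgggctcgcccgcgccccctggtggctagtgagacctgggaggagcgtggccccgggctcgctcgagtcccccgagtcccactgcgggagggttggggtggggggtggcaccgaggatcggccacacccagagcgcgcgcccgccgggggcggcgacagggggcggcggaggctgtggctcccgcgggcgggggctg
The match begins at -167 from the start site, and 3.65% of all windows hold this motif on either strand. Another member, Bcl2l11, has a match on the other strand at -227 from one of its starts, and its value did not pass. The Bbc3 window at 16309333 to 16309632 holds overlapping kappaB matches at -137 and -136, and windows of Bcl2l1 hold a kappaB match at -242 and an ARE match, TGACNNNGC, at -127. Of all windows, 4.51% hold the kappaB motif and 12.4% the ARE motif. Windows were read for 9 of the 10 members. The p53 half-site was searched as RRRCWWGYYY, where R is A or G, W is A or T and Y is C or T. Of these members Bax alone held a match, against 8.36% of all windows. A missing match says only that these exact letters are absent, and sites that depart from them, in Bbc3 or elsewhere, were not searched.

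Pmaip1 (ENSMUSG00000024521; chromosome 18, 66458533 to 66465565, plus strand) encodes NOXA, the BH3-only protein that binds MCL-1 and A1. Its reads numbered 363 and 373 in the controls and 264 and 294 in the Reg1-MOs libraries. The log2 values were 4.25 and 4.29 against 3.77 and 4.05, and the groups lay 0.20 apart. A log2 fold change of -0.36 (SE 0.12, 95% interval -0.64 to -0.08) did not pass (limma adjusted p = 0.0934). The lower of the Reg1-MOs libraries decided its size, at -0.50 when Reg1-MOs replicate 2 was left out, where it passed (limma adjusted p = 0.0466), and -0.22 when Reg1-MOs replicate 1 was (adjusted p = 0.217).

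Bid (ENSMUSG00000004446; chromosome 6, 120891930 to 120916853, minus strand), which links death receptors to mitochondria once caspase-8 has cut its protein, stood on the other side. Its log2 values were 5.51 and 5.50 in the controls and 5.80 and 5.71 with Reg1-MOs. Both Reg1-MOs libraries lay above both controls, by 0.20 at the closest, and the log2 fold change was 0.25 (SE 0.08, 95% interval 0.07 to 0.43, limma adjusted p = 0.0795). Annotated exons of Bid and of Bcl2l13, on the opposite strand, share 628 bases, and 15.7% of the Bid words lie in Bcl2l13. That neighbour stood at 0.09 (adjusted p = 0.631), and reads of the pair cannot be told apart where the counting ignored strand.

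Bcl2l11 (ENSMUSG00000027381; chromosome 2, 128126038 to 128162547, plus strand) encodes BIM, an activator of Bax and Bak. It had the most reads of the BH3-only genes, 4826 and 5154 in the controls and 4401 and 4547 with Reg1-MOs. The log2 values, 7.98 and 8.08 against 7.83 and 8.0, overlapped. It stood at a log2 fold change of -0.12 (SE 0.08, 95% interval -0.30 to 0.07, limma adjusted p = 0.371), from -0.20 without Reg1-MOs replicate 2 to -0.03 without Reg1-MOs replicate 1.

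**Figure D3:**
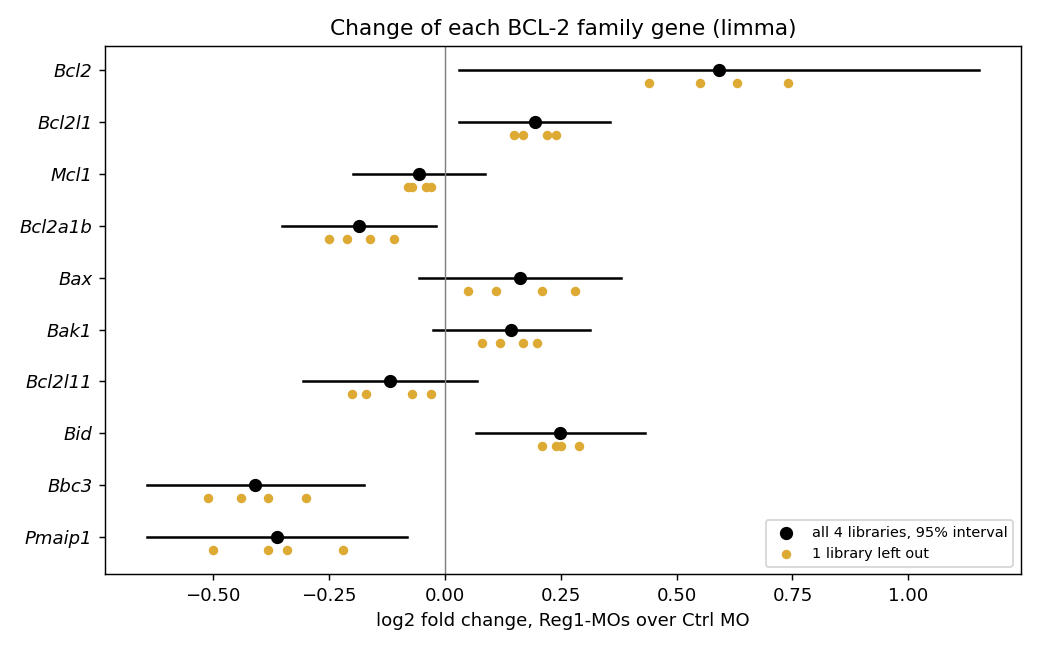
Log2 fold change of each BCL-2 family gene, Reg1-MOs over Ctrl MO, with black points and 95% intervals from limma on all 4 libraries and yellow points for fits with 1 library left out. The Bbc3 and Pmaip1 points lie lowest, at -0.41 and -0.36, Bcl2 has the widest interval, and no yellow point falls on the other side of 0 from its black point.

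The genes whose pattern over the 4 libraries lay closest to that of Bbc3, by Euclidean distance between centred log2 values among 9475 other genes averaging 50 reads or more, were Manf (distance 0.02), Kank3 (0.04) and Wdr83 (0.05). Manf, a secreted factor of the endoplasmic reticulum stress response, had 1555 and 1601 reads against 1317 and 1031.

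Per length, the members spanned a wide range of levels. In RPKM, computed here by dividing RPM by the annotated exon length in kilobases, Bcl2a1b stood highest, at 846 to 1036 over the 4 libraries, and Mcl1 next, at 228 to 234. Bax was at 49.7 to 64.9 and Bak1 at 46.1 to 56.2. Bcl2l1 spanned 22.0 to 27.4 and Bcl2l11 22.2 to 25.5. Bbc3 lay at 8.60 to 12.5 and Bid at 9.62 to 12.3. Pmaip1 was at 3.92 to 5.42 and Bcl2 lowest, at 0.0910 to 0.159. The neighbours Bax and Bak1, Bcl2l1 and Bcl2l11, and Bbc3 and Bid overlapped over the libraries, and the other neighbours in this order did not. Bcl2a1b lay above 99.6% of the genes with an annotated length, Mcl1 above 98.3% and Bcl2 above 4.49%. The level of Bcl2a1b carries the uncertainty of reads shared with its copies.

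Summed by role on this scale, the 4 pro-survival genes gave 1293 and 1239 in the controls and 1219 and 1099 with Reg1-MOs, most of it Bcl2a1b. The 2 effectors summed to 102.4 and 95.8 against 121 and 103, and the 4 BH3-only genes to 51.4 and 52.95 against 48.7 and 48.7. The pro-survival and BH3-only sums were lower in both Reg1-MOs libraries than in either control. The effector sums were higher, at the closest 103.4 with Reg1-MOs against 102.4 in a control. Members did not all follow their sums: Bax and Bcl2l11 overlapped, and Bid, Bcl2 and Bcl2l1 had higher values with Reg1-MOs. Of all single genes, 58.9% did not overlap, and no such share was computed for sums.

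**Figure D4:**
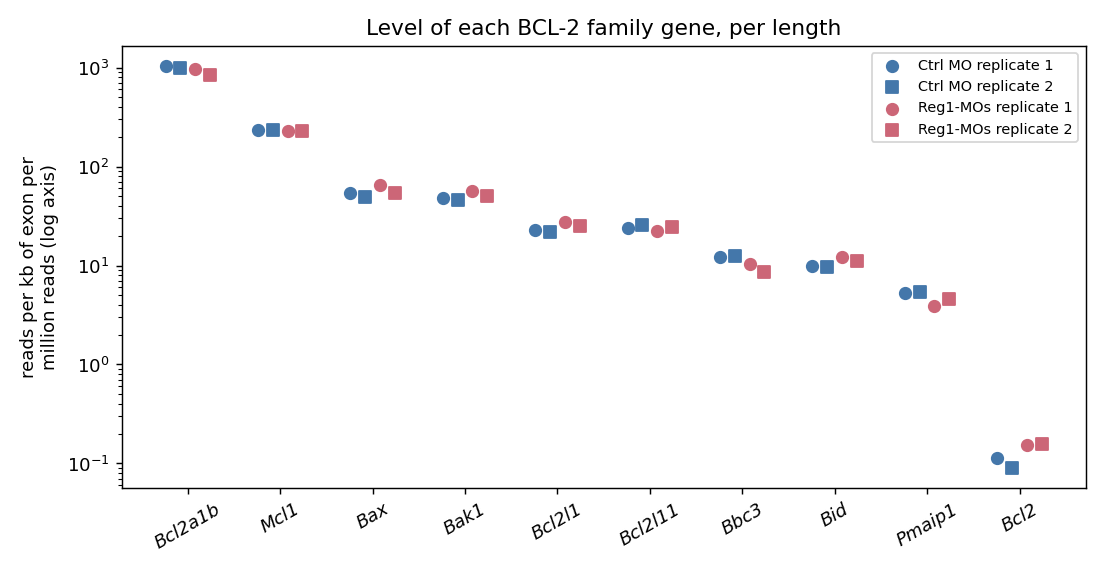
Level of each BCL-2 family gene in each library, in RPKM on a log axis, ordered by mean; blue is Ctrl MO, red Reg1-MOs, circles replicate 1 and squares replicate 2. Bcl2a1b and Mcl1 stand highest, Bcl2 lowest at 0.0910 to 0.159, and the differences between groups are small beside those between genes.

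Other genes of the family and of cell death were read from 7 lists, to be set against the 6.22% of all genes called higher and the 6.03% called lower. Of 12 detected relatives of the family, the mitophagy receptor gene Bnip3l rose (0.40, SE 0.07, limma adjusted p = 0.0146) and Bcl2a1a fell. The list's median log2 fold change was -0.02. The Bcl2l2 row, counted among the 12, carries an Ensembl identifier that GENCODE names Pabpn1, so the gene behind its reads is uncertain. Removing either control or Reg1-MOs replicate 1 ended the Bnip3l call (limma adjusted p up to 0.135).

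Downstream of the mitochondria, 0 of 14 genes of the apoptosome and caspases passed in either direction, with a median of 0.04. The smallest p was that of Htra2, a mitochondrial protease that relieves caspase inhibition (0.28, limma adjusted p = 0.0682). Of 9 inhibitors of apoptosis, 0 rose and 2 fell, with a median of -0.23, and 8 of 9 had values below 0, against 6.03% of all genes called lower and 6043 of 11111 below 0. Xiap, which binds and inhibits caspases directly, fell by 0.53 (SE 0.13, limma adjusted p = 0.0415), from 4474 and 4934 reads in the controls to 2848 and 3514. Its call ended when Reg1-MOs replicate 1 was left out (-0.32, adjusted p = 0.109). Birc5, encoding the mitotic inhibitor survivin, fell by 1.35 (SE 0.32, adjusted p = 0.0340) on 8 to 28 reads, a call that ended without any 1 library (adjusted p up to 0.164). Birc3, encoding cIAP2 and singled out after its values were seen because of the human report named above, had 10460 and 10833 reads against 8879 and 8669 and stood at -0.24 (limma adjusted p = 0.0547, or 0.0459 once Reg1-MOs replicate 2 was left out).

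Among 12 genes of death receptors and necroptosis 0 passed, with a median of 0.00; Fas had the smallest p (-0.26, adjusted p = 0.0607). Of 14 genes for turnover and mitochondrial partners of BCL-2 proteins 0 passed, with a median of -0.02. The smallest p there was that of Trib1, encoding a pseudokinase, at 0.27 (limma adjusted p = 0.05003, just above the threshold, and 0.0330 with equal totals). Of 9 pyroptosis genes, Ninj1, whose protein ruptures the plasma membrane of dying cells, rose (0.34, SE 0.06, adjusted p = 0.0168), as did Nlrc4 (0.53, SE 0.14, adjusted p = 0.0493), and Pycard, the adaptor ASC of inflammasomes, fell (-0.31, adjusted p = 0.0360). Removing a control or Reg1-MOs replicate 1 ended the Ninj1 call (limma adjusted p up to 0.177), removing Ctrl MO replicate 2 or a Reg1-MOs library that of Nlrc4 (up to 0.322), and removing any library that of Pycard (up to 0.250).

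Of 18 transcription regulators of family genes, 3 rose and 1 fell, with a median of -0.05. Trp53, encoding p53, which activates Bbc3, Pmaip1 and Bax, rose by 0.41 (SE 0.09, limma adjusted p = 0.0257), from 717 and 685 reads to 996 and 823. Of those targets, Bbc3 fell (-0.41), Pmaip1 stood at -0.36 and Bax at 0.16, the last 2 short of the threshold. Ddit3, encoding the stress factor CHOP, which induces Bcl2l11 and Bbc3, rose by 0.47 (adjusted p = 0.0151). Mitf, which activates Bcl2 in melanocytes, rose by 0.40 (adjusted p = 0.0203), and Myc fell by 0.46 (adjusted p = 0.0436). Leaving out 1 library ended the calls of Trp53 (limma adjusted p up to 0.170) and Ddit3 (up to 0.0741) in every case but Reg1-MOs replicate 2, that of Mitf (0.105) for Ctrl MO replicate 1, and that of Myc (up to 0.246) for any library. The Myc call also ended with equal totals.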

How the data were processed

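The authors deposited 1 table of log2 values, 1 column per library, for 11111 genes. Libraries were directional and made from poly(A) RNA, per the labels' protocols. The submitters' processing notes name HISAT2 1.6.3, cutadapt and FastQC, with mm10 as the build. How reads were counted, with which strand setting, filter and scaling, is not given in the sources used here. In every column, 2 to the power of the value came out as a whole number of reads plus 0.5, times a constant per library (within 0.01 of a whole number for 100% of genes), so reads were recovered. Intervals are limma's and the depth (23369753 to 25213695 reads) limits low genes such as Bcl2.

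The test was limma 3.58.1 (R 4.3.3) with a mean-variance trend, two-sided, run on the whole table of deposited values with no term besides group, after a check on simulated data. Adjusted p-values are Benjamini-Hochberg values over all 11111 genes, threshold 0.05. The design had allowed for linear or log2 values, and the values were used as deposited. Voom weights, plain totals, quantile normalization, an offset of 8 reads, a minimum mean of 50 reads, no trend, a replicate block and each library left out were the alternatives. Exon lengths, overlaps and 75-base words come from GENCODE M21, and promoter windows from RefSeq on GRCm38.p6. Motifs searched on both strands were FOXO TGTTTAC, AP-1 TGANTCA, ARE TGACNNNGC, kappaB and the p53 half-site. Named genes were the 10 members, Zc3h12a, up to 4 called genes per cell death list or the gene with the smallest p where none passed, marker genes and the 3 genes closest in pattern to the member with the smallest p. The 10 members and the 14 gene lists were chosen with earlier results of these data known.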

Additional observations from a re-analysis of the deposited data

How the results depend on the processing

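The count of members passing limma (0 higher, 1 lower) was the same with quantile normalization, equal totals, voom weights, an offset of 8 reads and a minimum mean of 50 reads, which leaves out Bcl2. With the replicate block, 2 members were higher (Bcl2l1 and Bid) and 3 lower (Bcl2a1b, Bbc3 and Pmaip1), against 30.8% of all genes, with 1532 genes higher and 1891 lower; same-numbered libraries deviated together with a correlation of 0.314, which is equal for both numbers by construction. Without a variance trend 0 members were lower, and 195 genes were higher and 182 lower. With 1 library left out, 0 members were higher and 0 to 1 lower, the 1 being Pmaip1 without Reg1-MOs replicate 2, and 249 to 530 genes were higher and 258 to 860 lower; a group left with 1 library is there assumed to vary like the other. The cause of these shifts was not tested beyond the smaller number of libraries. Mcl1 stood at 0.01 with quantile normalization, Bcl2l13 at -0.04 to 0.23 with 1 library left out, the -0.04 without Reg1-MOs replicate 2, and Csf1r at -0.01 to 0.03, the -0.01 when Ctrl MO replicate 1 or when Reg1-MOs replicate 2 was left out. Of 109 member values under the alternatives, 98 kept their direction and side of the threshold, 5 ended a call, 5 gained one and 1 changed sign. Of the 11 cell death genes called outside the members, Birc5 alone also passed without a variance trend. Birc5 had 8 to 28 reads, and that fit makes no allowance for the level of a gene.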

Other observations

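Differences of log2 values between members within a library, chosen after the values were seen, carry no test. Mcl1 minus Pmaip1, the genes for MCL-1 and the NOXA that binds it, was 5.77 and 5.76 in the controls and 6.19 and 5.95 in the Reg1-MOs libraries, so both Reg1-MOs libraries lay higher. Mcl1 minus Bbc3 was 4.95 and 4.92 against 5.16 and 5.42, also without overlap. Mcl1 had almost the same level in all libraries, so both differences mostly repeat the lower Pmaip1 and Bbc3 values. Bcl2l1 minus Bcl2l11 was -0.87 and -1.02 against -0.51 and -0.76. By contrast Bcl2l1 minus Bax, at 0.31 and 0.36 against 0.30 and 0.44, overlapped between groups. Mcl1 minus Bcl2l11 overlapped as well, at 2.04 and 1.97 against 2.13 and 2.00. So did Bcl2a1b minus Pmaip1, for A1 and NOXA, at 5.86 and 5.76 against 6.20 and 5.78. No share over all gene pairs was computed.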
